A study of Homo sapiens with 21 samples.

Results

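The enzymes that cut, trim and crosslink the extracellular matrix were followed through the differentiation of human iPSCs into cardiomyocytes. The group holds the matrix metalloproteinases (MMP), their tissue inhibitors (TIMP), the ADAMTS proteases and the related ADAMTSL proteins, the lysyl oxidases (LOX and LOXL) and the lysyl hydroxylases (PLOD). Members were all transcripts in the 6 deposited comparison tables whose gene symbol has the name of one of these families. They numbered 80 transcripts of 48 genes, among 21537 transcripts of 11851 genes listed in at least 1 table. The rule used names only and no measured value.

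Cells were of PGP1, an established human iPSC line, and poly-A RNA was sequenced from 21 libraries in 7 groups of 3. The wild-type groups were iPSCs, mesoderm (M), cardiac mesoderm (CMes), cardiac progenitors (CP) and cardiomyocytes (CM). The remaining groups were beating CMs of UBE2B-/-1 and UBE2B-/-2, 2 lines with inactivating mutations of UBE2B made by separate CRISPR-Cas9 editing experiments in PGP1. UBE2B is the ubiquitin-conjugating enzyme that works with RNF20 and RNF40 to place ubiquitin on histone H2B. Differentiation used the WNT activator CHIR99021 and then the WNT inhibitor IWP4, and beating CMs were selected in lactate, which cardiomyocytes can live on and most other cells cannot. Each line came from picked colonies, so a line is 1 edited clone on 1 genetic background. Mutant cells were plated at a higher number than wild-type cells.

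The files list a transcript only where its q-value, the Benjamini-Hochberg adjusted p of the Wald test in Sleuth, was at most 0.05, and they hold no value per library. Each value below is therefore a group mean over 3 libraries on a geometric scale, in estimated counts, with the standard error (SE) of the fitted log2 change or the pooled SD between replicates. The depth per library is unknown here. A transcript was called when it was listed and its change was at least 1.79-fold (an absolute log2 change of 0.84), and "rose" and "fell" are kept for called transcripts. This is stricter than a 1.5-fold limit, since 1.5 enters as a log2 value on a natural-log scale. With a plain 1.5-fold limit, 19, 31, 35 and 49 member transcripts would be called at the 4 transitions and 10 and 15 in the 2 lines, so those described as under the size limit, apart from LOXL2 from M to CMes, would be among them. The calls rest on a normal distribution for the Wald statistic. With a t distribution on the residual degrees of freedom and the same adjustment over all transcripts, 3 member transcripts were called from CP to CM (those of MMP15, TIMP3 and ADAMTS12) and 0 in each of the 5 other comparisons. At an unadjusted p under 0.05 from that t distribution, 17, 28, 32 and 39 of the member calls at the 4 transitions remained, and 9 and 13 in the 2 lines. Only from CP to CM, where 39 of 46 remained, could this limit remove a call. Elsewhere every listed transcript passes it by construction.

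The extracellular matrix is built and rebuilt throughout heart formation. MMPs cleave collagens, proteoglycans and basement membrane, some as secreted proteins and some, such as MMP14 and MMP15, anchored in the cell membrane. TIMPs block them, and TIMP2 together with MMP14 also forms the complex that activates MMP2. ADAMTS proteases split into the cleavers of versican and other proteoglycans (ADAMTS1, 4, 5, 8, 9, 15 and 20), the procollagen N-proteinases (ADAMTS2, 3 and 14) and smaller sets. PLOD enzymes hydroxylate lysines of collagen inside the cell, and LOX enzymes oxidize lysines outside it, which starts the crosslinks that stiffen collagen and elastin.

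The stage labels were read against marker genes first. All 6 cardiomyocyte markers (TNNT2, MYH6, MYH7, ACTN2, PLN and NKX2-5) rose from CMes to CP and again from CP to CM, and 4 of 5 pluripotency markers fell at each of these steps. Of the pluripotency markers, only 1 fell from iPSC to M, and 1 rose (DNMT3B) and 2 fell from M to CMes. Of 4 mesoderm markers, 3 rose from iPSC to M, 2 rose and 1 fell from M to CMes, and 4 fell from CMes to CP. Of 8 mesenchymal markers, 1 rose and 3 fell from iPSC to M, and 5 rose from M to CMes. Among the same 8, 5 rose and 1 fell from CMes to CP, and 2 rose and 5 fell from CP to CM. Of 4 endoderm markers, 3 rose from M to CMes (SOX17 with a log2 change of 10.58), 2 rose and 1 fell from CMes to CP (AFP 10.67 and APOA1 6.18 among them), and 3 fell from CP to CM. Of 4 epicardial markers, 1 rose from M to CMes, 3 rose from CMes to CP and 2 fell from CP to CM. Of 4 smooth muscle markers, 2, 2 and 4 rose at these steps, and of 4 endothelial markers 2 fell from CP to CM. From iPSC to M, 1 endoderm and 1 smooth muscle marker rose, 1 of each fell, and 1 endothelial marker fell. A gene counts as called here through its listed transcript with the highest mean, which need not be its main one. The part of these cell types in the member changes was not tested. In these bulk samples, fewer cells of a type and less RNA per cell cannot be told apart. In the UBE2B-/- CMs, 1 UBE2B transcript (ENST00000499038.2) was listed, in UBE2B-/-1 with a log2 change of -1.91 (SE 0.53), and 0 were listed for UBE2B-/-2. A transcript level does not test whether the edited gene still makes protein.

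To show the regulatory sequence of the genes that the results turn on, the 250 bases before the start site are given for MMP14 (chr14:22836335-22836584, plus strand) and ADAMTS7 (chr15:78811465-78811714, minus strand), which rose in each UBE2B-/- line. They are also given for MMP15 (chr16:58025504-58025753, plus strand) and TIMP3 (chr22:32801455-32801704, plus strand), which had the highest z values among the rises from CP to CM. MMP10 (chr11:102780629-102780878, minus strand) is shown as the member with the lowest GC content in this window. Sequences are from RefSeq on GRCh38.p14, 5′ to 3′ on the strand of the gene, and 32 of the 48 genes had an entry. Capitals mark the motifs searched on both strands: the GC box (GGGCGG), the CCAAT box (CCAAT), the TATA box (TATAAA) and the AP-1 site (TGANTCA). Adjacent GC boxes may overlap.
MMP14: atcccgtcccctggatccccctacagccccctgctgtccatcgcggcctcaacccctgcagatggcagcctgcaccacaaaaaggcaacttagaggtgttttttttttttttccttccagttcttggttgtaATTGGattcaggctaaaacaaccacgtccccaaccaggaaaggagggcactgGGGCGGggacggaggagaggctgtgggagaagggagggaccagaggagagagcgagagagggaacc
ADAMTS7: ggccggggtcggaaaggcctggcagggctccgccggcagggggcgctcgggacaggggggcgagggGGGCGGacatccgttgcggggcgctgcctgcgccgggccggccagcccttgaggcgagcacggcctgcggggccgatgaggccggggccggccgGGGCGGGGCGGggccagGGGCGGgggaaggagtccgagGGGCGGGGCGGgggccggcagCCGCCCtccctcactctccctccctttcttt
MMP15: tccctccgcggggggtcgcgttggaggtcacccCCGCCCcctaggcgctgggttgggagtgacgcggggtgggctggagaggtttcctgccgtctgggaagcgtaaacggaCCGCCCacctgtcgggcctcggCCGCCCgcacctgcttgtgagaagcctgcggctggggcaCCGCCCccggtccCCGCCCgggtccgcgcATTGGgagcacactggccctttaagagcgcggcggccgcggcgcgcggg
TIMP3: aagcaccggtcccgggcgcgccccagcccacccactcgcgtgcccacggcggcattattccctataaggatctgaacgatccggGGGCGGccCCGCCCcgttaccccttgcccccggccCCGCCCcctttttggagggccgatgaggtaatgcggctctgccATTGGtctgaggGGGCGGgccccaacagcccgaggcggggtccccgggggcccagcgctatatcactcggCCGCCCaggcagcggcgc
MMP10: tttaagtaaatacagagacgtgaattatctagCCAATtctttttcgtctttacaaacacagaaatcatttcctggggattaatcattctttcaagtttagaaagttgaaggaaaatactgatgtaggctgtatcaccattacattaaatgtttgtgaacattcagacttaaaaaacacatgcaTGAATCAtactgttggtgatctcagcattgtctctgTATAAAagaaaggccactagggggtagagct

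The GC box was found in 27 of the 32 member promoters and in 42.3% of all 27305 promoters of this length. The CCAAT box was found in 11 member promoters and in 33.0% of all promoters. The TATA box was found in 3 (ADAMTS10, ADAMTSL2 and MMP10) and in 11.1% of all, and the AP-1 site in 2 (ADAMTS12 and MMP10) and in 6.60% of all. ADAMTS7 held 7 GC boxes in a window of 80.8% GC. MMP10, a secreted stromelysin, held the TATA box 31 bases and the AP-1 site 67 bases upstream of the start, with 34.4% GC. A match is a description of the letters and no measured binding.

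Counts of called genes were set beside those of the whole annotation. Of the 59 protein-coding genes of these families in GENCODE 44, 13 had a called transcript from iPSC to M (22.0%, against 7.23% of all 20020 protein-coding genes). From M to CMes there were 19 (32.2%, against 15.2%). From CMes to CP there were 25 (42.4%, against 14.9%), and from CP to CM 31 (52.5%, against 30.5%). In UBE2B-/-1 there were 8 (13.6%, against 9.78%) and in UBE2B-/-2 10 (16.9%, against 9.75%). MMP3, MMP7, MMP8, MMP12, MMP13, MMP19, MMP20, MMP21, MMP26, MMP27 and ADAMTS13 were listed in no table. These shares describe the lists, and how many member transcripts entered each test is not known from tables of listed transcripts. Over the listed transcripts, the median log2 change of the members was -0.70, 1.05, 1.70 and 0.93 at the 4 transitions in order, beside -0.47, 0.57, 0.40 and 0.63 over all listed transcripts. It was 1.84 in UBE2B-/-1 and 2.25 in UBE2B-/-2, beside 0.73 and 0.87.

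**Figure D1:**
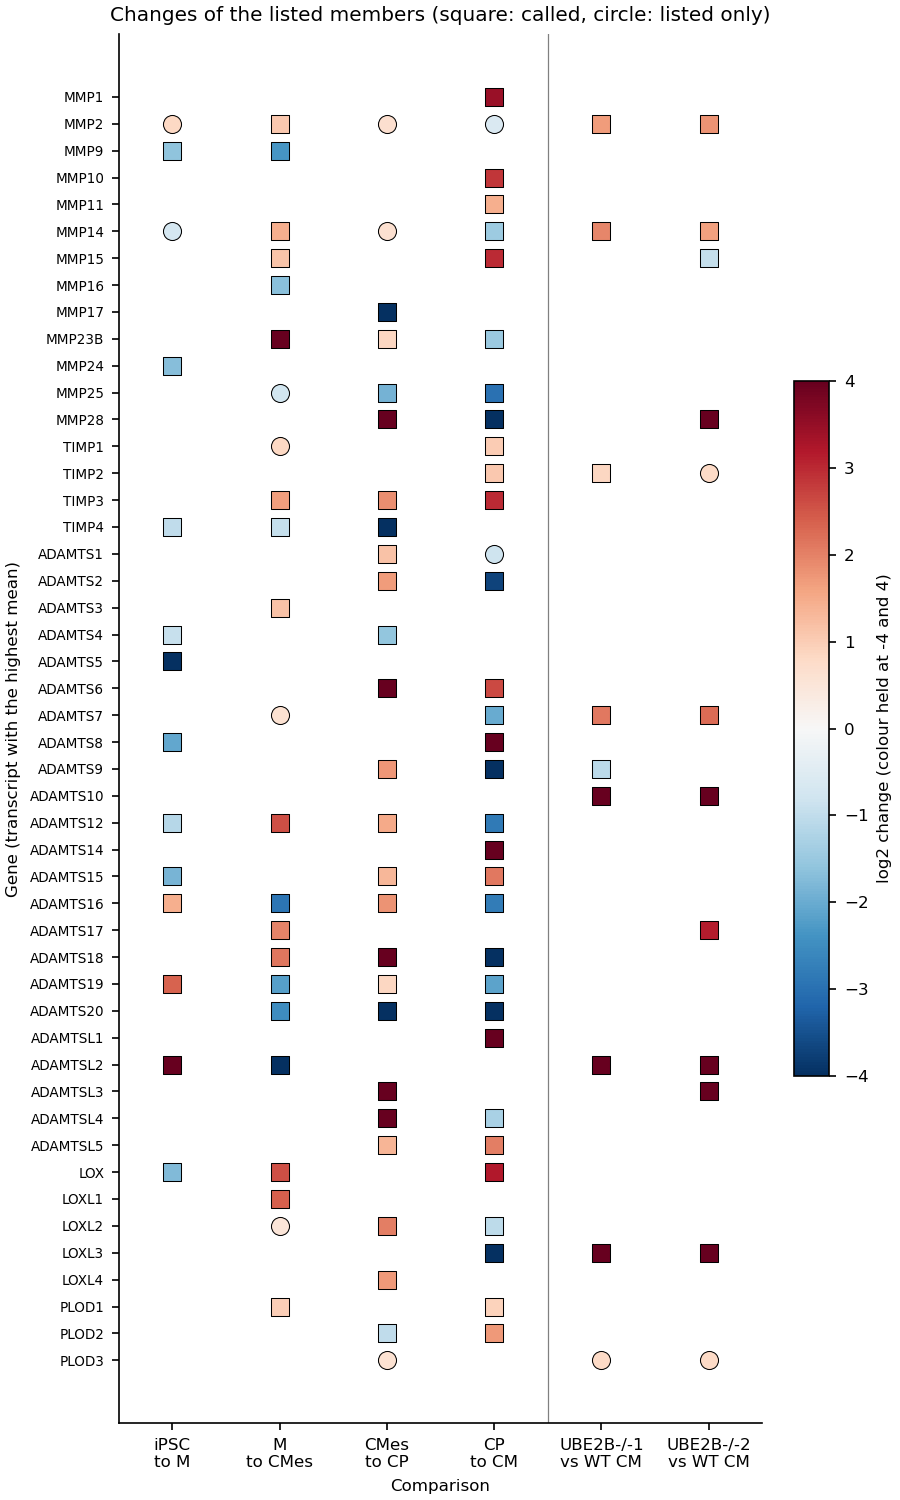
Log2 change of each listed member gene (rows, the transcript with the highest mean) in the 6 comparisons (columns), red for higher and blue for lower in the later stage or the mutant, with colour held at -4 and 4. Squares were called, circles were listed but changed less than 1.79-fold, and blanks were not listed. From CMes to CP 17 of the 23 called genes are red, and from CP to CM 16 are red and 15 blue.

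The step from iPSC to M had fewer member calls than the later steps, and ADAMTS genes made up most of them. Of 19 listed transcripts, 8 rose and 9 fell, beside 849 higher and 1112 lower calls among all transcripts (1.24% and 1.62% of 68446 tested). Here and below, these percentages are shares of tested transcripts, a number unknown for the members. Only the split of the calls into higher and lower can be set side by side. By gene, 3 members rose and 9 fell. ADAMTS19 and ADAMTS16 rose, while ADAMTS12, ADAMTS15, MMP24, MMP9, TIMP4 and LOX were among those that fell.

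ADAMTS19, an ADAMTS protease of heart valve tissue, stood at 774 estimated counts in iPSCs and 4002 in M cells, which is 2.37 on the log2 scale (SE 0.18, q = 8.76e-37). Each of its 3 listed transcripts rose. ADAMTS16 went from 207 to 564 (log2 change 1.44, SE 0.18, q = 1.09e-13). Per kilobase of transcript, these were the highest of the traced ADAMTS genes at the M stage, at 769 and 113 estimated counts, with ADAMTS7 close behind at 97.6. ADAMTS15, a versican-cleaving protease, fell from 317 to 86.2 (log2 change -1.87, SE 0.20, q = 8.33e-18). ADAMTS12 fell from 829 to 379 (log2 change -1.13, SE 0.14, q = 1.09e-13). ADAMTS5, the aggrecanase, went from 65.8 to 0.205 estimated counts, so that M-stage cells were at the floor and no fold is given. MMP24, a membrane-type MMP known from the nervous system, fell from 809 to 251 (log2 change -1.69, SE 0.32).

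The gelatinases parted at this step. MMP9 fell from 283 to 93.0 (log2 change -1.60, SE 0.32). MMP2, its relative, had a log2 change of 0.83 (SE 0.26, q = 0.0372) in its main transcript, under the size limit, and 1.10 in a shorter coding transcript that was called. MMP14 went from 2306 to 1418 (log2 change -0.70, SE 0.15), listed and under the limit. TIMP4 fell from 209 to 104 (log2 change -1.01, SE 0.24) and LOX from 52.9 to 15.1 (log2 change -1.77, SE 0.57, q = 0.0430).

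From M to CMes, MMP2, MMP14 and MMP15 rose together with LOX, LOXL1, PLOD1 and TIMP3, while ADAMTS16, ADAMTS19 and ADAMTS20 fell. Of 32 listed transcripts, 17 rose and 11 fell, beside 2676 higher and 1861 lower calls among all transcripts (3.81% and 2.65% of 70285 tested). In genes, 12 rose and 7 fell. All 5 called LOX and LOXL transcripts rose, while 4 ADAMTS transcripts rose and 7 fell.

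ADAMTS12 had the largest absolute z (change over SE) of all members, with a rise from 379 to 2269 (log2 change 2.58, SE 0.13, q = 1.99e-79). Its replicate SD was 0.11 on the log2 scale. MMP14, the membrane collagenase that activates MMP2, rose from 1418 to 3886 (log2 change 1.45, SE 0.18, q = 6.77e-14), and both of its other listed transcripts rose as well. MMP15, its close relative, rose from 1136 to 2515 (log2 change 1.15, SE 0.12). MMP2 rose from 1375 to 2934 (log2 change 1.09, SE 0.32, q = 0.00997). TIMP3, the inhibitor that binds to the matrix and also blocks ADAMTS enzymes, rose from 116 to 368 (log2 change 1.66, SE 0.26). TIMP1 went from 400 to 716, with a log2 change of 0.84 (SE 0.25, q = 0.00959) that lay just under the size limit.

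LOX rose from 15.1 to 92.5 (log2 change 2.57, SE 0.55) and LOXL1, which crosslinks elastin, from 53.9 to 282 (log2 change 2.38, SE 0.38). PLOD1 rose from 1085 to 2171 (log2 change 1.00, SE 0.14). LOXL2 had a log2 change of 0.52 (SE 0.15), under the limit. On the other side, ADAMTS16 fell from 564 to 73.9 (log2 change -2.92, SE 0.24), ADAMTS19 from 4002 to 868 (log2 change -2.20, SE 0.19) and ADAMTS20 from 253 to 44.3 (log2 change -2.50, SE 0.31). MMP16, a membrane-type MMP, fell from 1339 to 418 (log2 change -1.68, SE 0.15). MMP9 fell again, to 17.6 (log2 change -2.37, SE 0.42), and TIMP4 to 53.4 (log2 change -0.95, SE 0.31, q = 0.0288).

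From CMes to CP most called members rose, led by ADAMTS18, ADAMTS12 and LOXL2. Of 35 listed transcripts, 26 rose and 6 fell, beside 2711 higher and 1877 lower calls among all transcripts (3.8% and 2.63% of 71328 tested). Of the ADAMTS transcripts 14 rose and 2 fell, and ADAMTS2 counts 4 times among the rises although its 4 identifiers hold only 2 sets of values. With identical values counted once, 24 member transcripts rose. In genes, 17 rose and 6 fell.

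ADAMTS18 rose from 47.3 to 779 (log2 change 4.03, SE 0.25, q = 9.81e-58). ADAMTS12 rose further, from 2269 to 6501 (log2 change 1.52, SE 0.10), with a replicate SD of 0.04 on the log2 scale. ADAMTS9, a versican-cleaving protease, rose in both coding transcripts, by 1.77 (SE 0.16) in the longer and by 2.78 in the shorter. ADAMTS2, which removes the N-propeptide of fibrillar collagens, rose from 164 to 534 (log2 change 1.70, SE 0.15). ADAMTS16, which had fallen at the step before, rose from 73.9 to 257 (log2 change 1.79, SE 0.24). These 5 ADAMTS genes thus stood higher in CP than in CMes by more than their replicate spread, which holds for any listed change by construction.

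LOXL2, a collagen IV crosslinker, rose from 974 to 4009 (log2 change 2.04, SE 0.14, q = 1.25e-44), and LOXL4 from 35.4 to 119 (log2 change 1.74, SE 0.29). TIMP3 rose from 368 to 1330 (log2 change 1.85, SE 0.23). The main transcripts of MMP14 (log2 change 0.65, SE 0.10) and MMP2 (log2 change 0.66, SE 0.20) were listed under the size limit, and a further coding transcript of each was called (log2 changes 1.01 and 0.86). PLOD3 was too, with a log2 change of 0.60 (SE 0.12). Among the genes that fell, MMP25, a membrane-type MMP of leukocytes, went from 377 to 102 (log2 change -1.88, SE 0.23). TIMP4 fell from 53.4 to 1.11 estimated counts, where CP cells were near the floor and the replicate SD was 1.29 on the log2 scale.

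From CP to CM, MMP15, TIMP1, TIMP2, TIMP3, LOX and PLOD1 rose, while ADAMTS2, ADAMTS12, ADAMTS16, ADAMTS18 and LOXL2, which had risen at the step before, fell. Of 49 listed transcripts, 25 rose and 21 fell, beside 5767 higher and 4886 lower calls among all transcripts (8.25% and 6.99% of 69937 tested). All 4 called TIMP transcripts rose, 5 ADAMTS transcripts rose and 14 fell (12 with identical values counted once), and 7 ADAMTSL transcripts rose and 1 fell. In genes, 16 rose and 15 fell. MMP14 and ADAMTS9 count among the genes that fell through retained-intron transcripts, and their main coding transcripts were not listed.

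MMP15 rose from 2454 to 19362 estimated counts (log2 change 2.98, SE 0.21, q = 4.42e-45), with a replicate SD of 0.25 on the log2 scale. TIMP3 rose by the same amount, from 1330 to 10517 (log2 change 2.98, SE 0.26, q = 1.27e-27). TIMP1 rose from 952 to 1928 (log2 change 1.02, SE 0.33, q = 0.0158) and TIMP2 from 871 to 1845 (log2 change 1.08, SE 0.25). LOX rose from 121 to 1129 (log2 change 3.21, SE 1.07, q = 0.0185). Its replicate SD was 1.31 on the log2 scale, and a test on its own residual variance gave an unadjusted p of 0.040. PLOD1 rose from 1845 to 3525 (log2 change 0.93, SE 0.15).

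Among the proteases, ADAMTS15 rose from 259 to 1132 (log2 change 2.12, SE 0.27) and ADAMTS14, a procollagen N-proteinase, from 10.8 to 231 (log2 change 4.36, SE 0.59). ADAMTS8 and ADAMTS6 rose as well, to 519 and 722 estimated counts. MMP1 and MMP10, an interstitial collagenase and a stromelysin that lie side by side on chromosome 11, rose to 110 and 51.7 from under 10 estimated counts each.

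ADAMTS12 fell from 6501 to 917 (log2 change -2.83, SE 0.25, q = 3.64e-28) and ADAMTS18 from 779 to 38.2 (log2 change -4.33, SE 0.55). ADAMTS7 fell from 706 to 175 (log2 change -2.01, SE 0.27), although near-identical pseudogenes (ADAMTS7P1, ADAMTS7P3 and ADAMTS7P4, on chromosome 15) can share its reads. ADAMTS2, the N-proteinase, fell from 534 to 40.6 while ADAMTS14, of the same activity, rose. LOXL2 fell from 4009 to 1949 (log2 change -1.04, SE 0.38, q = 0.0384), with an unadjusted p of 0.053 on its own residual variance. LOXL3 went from 123 to 0.959 estimated counts in a transcript (ENST00000393937.6) with a replicate SD of 1.92 on the log2 scale. MMP2 had a log2 change of -0.61 (SE 0.14), under the size limit. MMP14 was called in a retained-intron transcript (ENST00000547074.1), which fell from 185 to 67.4. Its main coding transcript was not listed. Its level, recovered from the neighbouring comparisons, went from 6078 to 4033.

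The estimated counts above were set on 1 scale with the stages that adjacent comparisons share, and 15 genes could be traced from M to CM. Of these, 6 were highest at CM (MMP15, TIMP1, TIMP3, LOX, PLOD1 and ADAMTS15), 5 at CP (MMP2, MMP14, LOXL2, ADAMTS12 and ADAMTS18), 1 at CMes (ADAMTS7) and 3 at M (MMP25, ADAMTS16 and ADAMTS19). The ratio of the highest to the lowest level in these 4 stages was 90.6 for TIMP3, 74.6 for ADAMTS18 and 74.5 for LOX. It was 3.25 for PLOD1, 3.38 for MMP2 and 4.29 for MMP14. MMP25 stood lower at each later stage, at 640, 377, 102 and 12.5, with its first step under the size limit. Neighbouring levels joined by a step that is not listed, such as those of ADAMTS7 from CMes to CP and of MMP14 from CP to CM, are not shown to differ. Adjacent comparisons share the libraries of a stage, so successive changes of a gene are not independent.

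**Figure D2:**
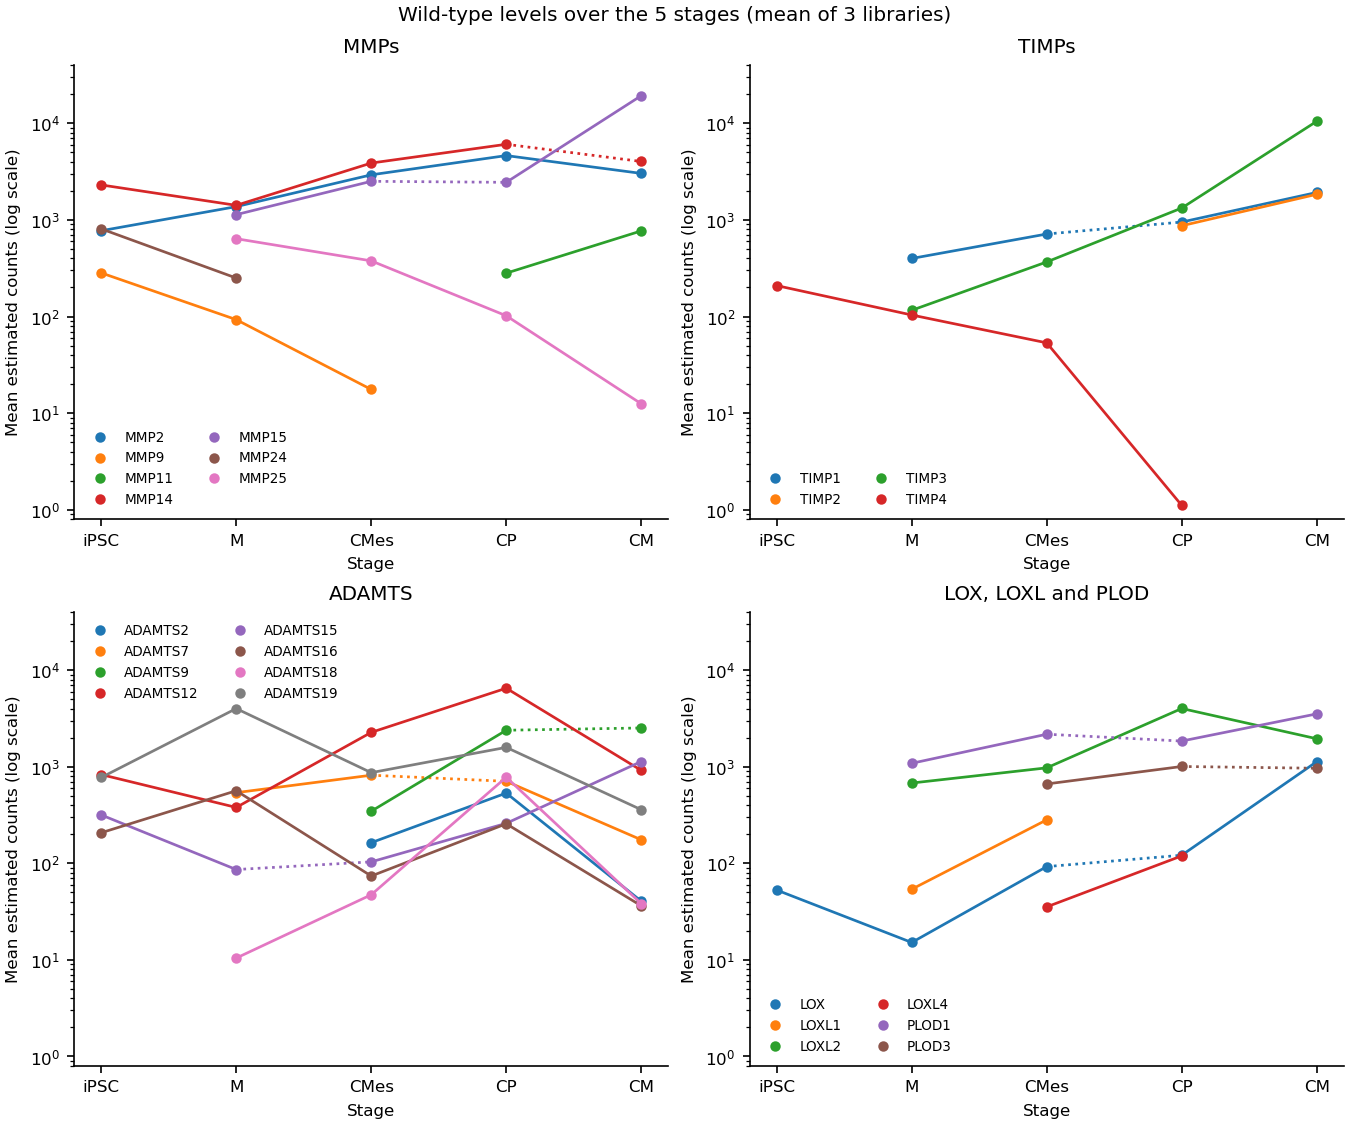
Mean estimated counts (log scale) of 25 member genes at the 5 wild-type stages, 1 transcript a gene, each point a mean of 3 libraries. Solid lines join stages whose comparison lists the transcript and dotted lines those recovered from neighbouring comparisons. TIMP3, MMP15 and LOX are highest at CM, and ADAMTS12, ADAMTS18 and LOXL2 are highest at CP.

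Levels can be compared between genes only per length of transcript. Per kilobase, MMP15 led the traced members at CM, with 4767 mean estimated counts, followed by TIMP1 with 2507 and TIMP3 with 2288. The difference between TIMP1 and TIMP3 is smaller than their replicate SDs of 0.41 and 0.32 on the log2 scale. PLOD1 (1185), MMP14 (1090) and MMP2 (864) came next. At both stages 1 transcript stands for each gene, and its other transcripts are not added. At CM a second coding transcript of MMP2 stood at 596, and the listed transcripts of TIMP2 at 505 and 433. The order of whole genes may therefore differ. At CP the order was another: MMP14 (1642), MMP2 (1321), TIMP1 (1238) and LOXL2 (1077) led, and MMP15 stood at 604. ADAMTS genes were led by ADAMTS12 at CP (758) and by ADAMTS9 at CM (357). Lengths are those of the whole transcripts and not the effective lengths of the quantification.

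**Figure D3:**
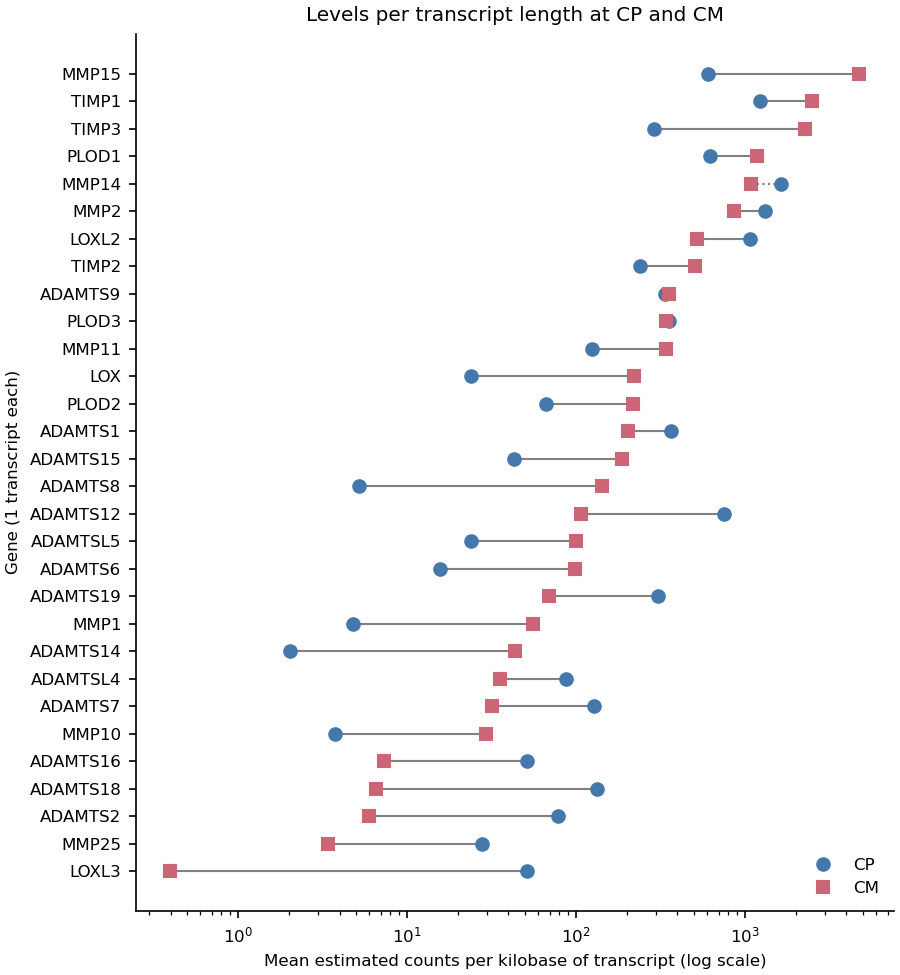
Mean estimated counts per kilobase of transcript (log scale) at CP (circles) and CM (squares) for the members with a level at both stages, 1 transcript a gene, sorted by CM. Members below a small floor at either stage, such as ADAMTSL1 at CP and MMP28 at CM, are left out. Dotted lines mark changes that the comparison does not list. MMP15 moves from 604 to 4767 and TIMP3 from 289 to 2288, while ADAMTS12 moves from 758 to 107.

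PLOD2 was listed through a different splice form at each of the last 2 steps. PLOD2 makes the lysyl hydroxylase that acts on the ends of collagen, where stiff crosslinks form, and its longer form carries an extra exon. The form without the exon (ENST00000360060.7, 19 exons) fell from 510 to 249 estimated counts from CMes to CP (log2 change -1.03, SE 0.27, q = 0.00187). The form with it (ENST00000282903.10, 20 exons) rose from 248 to 820 from CP to CM (log2 change 1.72, SE 0.48, q = 0.00339). At CP the 2 forms stood at 68.0 and 66.3 per kilobase. Each form was listed at only 1 of these steps, and its change at the other is unknown. No shift between the forms is therefore shown. The exon is shown because it is the exon that the shorter form lacks, and its length, a multiple of 3, keeps the reading frame. It is exon 14, at chr3:146077862-146077924 on the minus strand of GRCh38, 63 bases long and 47.6% GC.
PLOD2 exon 14: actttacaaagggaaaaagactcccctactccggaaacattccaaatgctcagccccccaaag

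The rest of the pathway was read from lists of genes outside these families. From iPSC to M, 2 of 15 matrix substrates rose and 2 fell, 2 of 18 genes for collagen modification rose and 0 fell, and 1 of 24 genes that activate or inhibit proteases rose and 5 fell. From M to CMes the counts were 9 and 1, 4 and 1, and 9 and 1 in the same order. From CMes to CP, 9 of 15 matrix substrates rose and 1 fell, among them COL1A1 with a log2 change of 4.38 (SE 0.27) and FN1 with 2.77 (SE 0.25). From CP to CM 4 rose and 7 fell, COL3A1 with -2.02 (SE 0.44) and COL1A2 with -0.93 (SE 0.14). VCAN, the versican core protein, counts among these falls, and COL1A1 among the rises, through minor transcripts with means of 88.3 and 78.5 estimated counts. Their main transcripts were listed from CMes to CP and not at this step. Of 18 genes for collagen modification, 6 rose and 0 fell from CMes to CP, and 4 rose and 6 fell from CP to CM. The collagen chaperone SERPINH1 had log2 changes of 0.91 (SE 0.11) and -1.37 (SE 0.17) at these steps, and P4HA1, a prolyl hydroxylase, 2.01 (SE 0.18) and -2.20 (SE 0.22). Of 24 genes that activate or inhibit proteases, 11 rose and 3 fell from CMes to CP, and 8 rose and 6 fell from CP to CM. Some calls in these lists rest on transcripts near the floor. From CP to CM those of TLL2, ADAM9 and PCSK6 had means of 2.91, 7.17 and 11.0 estimated counts. FURIN, the protease that activates membrane-type MMPs, changed by 0.99 (SE 0.14) and -1.06 (SE 0.28), and RECK, a membrane inhibitor of MMPs, by 0.48 (SE 0.15, under the limit) and -1.51 (SE 0.22).

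In the UBE2B-/- CMs nearly every called member was higher than in wild-type CMs. In UBE2B-/-1, of 10 listed transcripts 8 rose and 1 fell. Calls among all 65457 tested transcripts numbered 1425 higher (2.18%) and 1123 lower (1.72%). In UBE2B-/-2, of 15 listed transcripts 12 rose and 1 fell, beside 1609 higher (2.46%) and 1001 lower (1.53%) among all tested. Member counts are out of listed transcripts and the percentages out of tested ones, so only the splits into higher and lower are comparable. The called rises with the highest wild-type levels were those of MMP14, MMP2, ADAMTS7 and, in UBE2B-/-1, TIMP2, among members whose wild-type level could be computed. Both lines were compared with the same 3 wild-type libraries in 1 fit, so their changes are given side by side and are not independent. Estimated counts here are on the scale of that fit.

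MMP14 (ENST00000311852.11, chr14:22836585-22847758, plus strand, 10 exons) stood at 4653 estimated counts in wild-type CMs, 17949 in UBE2B-/-1 and 14424 in UBE2B-/-2. The log2 changes were 1.95 (SE 0.48, q = 0.00290) and 1.63 (SE 0.48, q = 0.0198). MMP2 (ENST00000219070.9, chr16:55479198-55506691, plus strand, 13 exons) stood at 3503, 11427 and 12097 in the same order, with log2 changes of 1.71 (SE 0.43, q = 0.00419) and 1.79 (SE 0.43, q = 0.00223). A retained-intron transcript of MMP14 rose in each line as well, from 77.8 to 261 and 247, and a shorter coding transcript of MMP2 in UBE2B-/-2, from 1360 to 4049, with a recovered level of 2327 in UBE2B-/-1. TIMP2, the partner of MMP14 in the activation of MMP2, stood at 2129, 3850 and 3723. Its log2 change was 0.85 (SE 0.20, q = 0.00168) in UBE2B-/-1, which was called, and 0.81 (SE 0.20, q = 0.00361) in UBE2B-/-2, which lay under the size limit. In all 3 genes both mutant means were above the wild-type mean by more than the replicate SD, which was 0.58, 0.53 and 0.20 on the log2 scale. Any listed change exceeds the replicate SD by construction, so this adds no support.

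ADAMTS7, a protease that cleaves cartilage oligomeric matrix protein, had the largest absolute z of the members in each line. It stood at 202 estimated counts in wild-type CMs, 868 in UBE2B-/-1 and 964 in UBE2B-/-2, with log2 changes of 2.10 (SE 0.31, q = 1.39e-08) and 2.25 (SE 0.31, q = 5.24e-10). The caution about its pseudogenes holds here too. PLOD3 stood at 1113, 1923 and 1916. Its log2 changes of 0.79 and 0.78 (SE 0.26 each, q = 0.0482 and 0.0499) were listed and under the limit.

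Transcripts of 3 further genes rose in each line from wild-type levels at or near 0, where a fold depends on the pseudocount and none is given. LOXL3, a lysyl oxidase, stood at 1.02 estimated counts in wild-type CMs, 123 in UBE2B-/-1 and 104 in UBE2B-/-2 (q = 0.000742 and 0.00135), with a replicate SD of 1.73 on the log2 scale. ADAMTSL2, a fibrillin-binding protein, stood at 143 and 50.1 in the lines, against 0 in wild-type CMs within rounding. ADAMTS10, which also binds fibrillin, stood at 18.6 and 14.6 against 0 in a transcript annotated for nonsense-mediated decay. None of these transcripts is the reference transcript of its gene, which was listed for neither line. The level of each whole gene in wild-type CMs is therefore unknown.

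In UBE2B-/-2 alone, transcripts of ADAMTS17 (log2 change 3.14, SE 0.72), ADAMTSL3, MMP28 and ADAMTS10 (ENST00000601163.1, with a retained intron) were called. Their wild-type levels could not be computed, because the variance columns leave a pair of possible values for UBE2B-/-1. For ADAMTS17 these were log2 changes of 1.42 and 1.72. The pairs were 3.02 and 3.29 for MMP28, 0.46 and 4.35 for ADAMTSL3, and 0.74 and 4.08 for this ADAMTS10 transcript. All these values lie above wild type, so the changes are not shown to be particular to UBE2B-/-2.

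Few members fell. ADAMTS9 fell in UBE2B-/-1, from 2907 to 1376 estimated counts (log2 change -1.08, SE 0.27, q = 0.00478). Its change in UBE2B-/-2, recovered from the variance columns, was -0.24, which put that line at 2469. Those columns also allow another, larger fall, set aside because it lies just past the size at which UBE2B-/-2 would have been listed. With that value the lines would differ less. The difference between the lines was 0.84 (95% interval 0.30 to 1.38), unadjusted and for a gene that entered because 1 line was listed and the other was not. MMP15 fell in UBE2B-/-2 (log2 change -0.94, SE 0.31, q = 0.0476), from 22343 to 11660. Its recovered change in UBE2B-/-1 was -0.72, with 13547 estimated counts, so that both mutant means lay below wild type.

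The lines were compared directly for the 9 member transcripts listed for both. The statistic was the difference of the 2 changes over the SE of 1 line, read on a normal distribution. At an adjusted p under 0.05, 0 of the 9 differed by it, 0 had an unadjusted p under 0.05, and the smallest unadjusted p was 0.372. Among all 1992 transcripts listed for both lines, 0 passed the adjustment and 29 had an unadjusted p under 0.05. The 95% intervals of the difference (UBE2B-/-2 minus UBE2B-/-1, log2) ran from -1.25 to 0.62 for MMP14, from -0.76 to 0.92 for MMP2, from -0.45 to 0.76 for ADAMTS7 and from -0.44 to 0.35 for TIMP2. They do not show that the lines act alike. A transcript entered only when listed for both lines, which tends to leave out those on which the lines differ. The counts of 0 therefore cannot decide whether the lines differ.

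**Figure D4:**
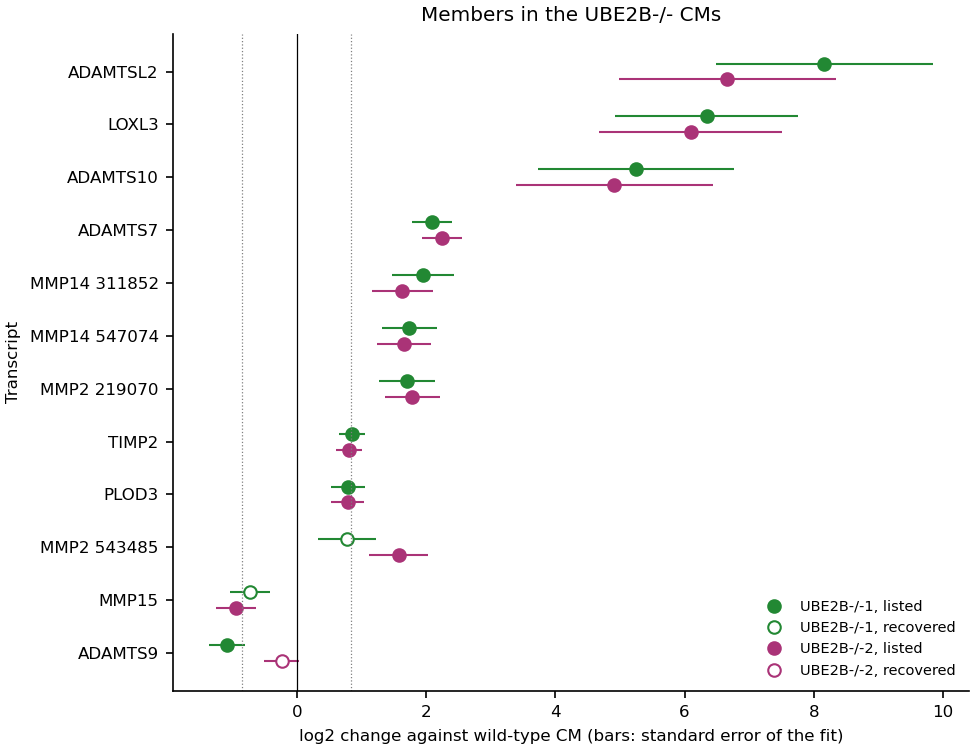
Log2 change against wild-type CMs of the member transcripts with a value in both UBE2B-/- lines, with the standard error of the fit as bars, filled where the file lists the transcript and open where the value was recovered. Numbers after MMP14 and MMP2 are the last digits of the transcript, and dotted lines mark the size limit. MMP14, MMP2 and ADAMTS7 lie between 1.63 and 2.25 in their main transcripts, and MMP15 and ADAMTS9 lie below 0 in both lines.

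In the lists outside the families, most genes were not called. Of 18 genes for collagen modification, 4 rose in UBE2B-/-1 and 7 in UBE2B-/-2, and 0 fell in either line. PCOLCE was called in UBE2B-/-1 through a transcript with a mean of 9.89 estimated counts. Of 24 genes that activate or inhibit proteases, 4 and 5 rose and 0 fell, with FURIN at log2 changes of 1.21 and 1.12 (SE 0.31 each). ADAM10 was called in each line, and TFPI2 in UBE2B-/-1, through transcripts with wild-type levels of 1.70 and 1.01 estimated counts. PCSK6 was called in UBE2B-/-2 through a transcript with a mean of 20.6. Of 15 matrix substrates, 3 and 6 rose and 0 fell, with COL3A1 at 3.51 and 4.81 (SE 0.79 each). COL1A1, COL1A2, COL3A1, LUM and DCN are both substrates and mesenchymal markers here. Of 8 mesenchymal markers, 3 rose in UBE2B-/-1 (COL3A1, DCN and PDGFRA) and 5 in UBE2B-/-2 (COL3A1, COL1A1, COL1A2, LUM and DCN). PDGFRA was called through a transcript near the floor, with a mean of 4.46 estimated counts, and its main transcript was not listed. The 7 mesenchymal transcripts listed for both lines summed to 9371 estimated counts in wild-type CMs, 95300 in UBE2B-/-1 and 248858 in UBE2B-/-2, and 4 of the 5 DCN transcripts stood under 3 estimated counts in wild-type CMs. Of 6 cardiomyocyte markers, 3 fell in UBE2B-/-1 (TNNT2, ACTN2 and PLN) and 4 in UBE2B-/-2 (MYH6 as well). MYH6 was called through a transcript with a mean of 227 estimated counts, and its main transcript was listed for neither line. The 8 cardiomyocyte transcripts listed for both lines summed to 138840, 43716 and 38487. The mesenchymal and cardiomyocyte sums cover only transcripts chosen by being listed, of 2 of 8 and 3 of 6 genes. They are not totals of the marker sets and add nothing to the counts of calls. COL3A1 (ENST00000304636.7) alone held 207028 of the mesenchymal sum in UBE2B-/-2. A transcript of the epicardial marker TCF21 rose in each line, KDR rose in UBE2B-/-2 and SOX17 rose in UBE2B-/-1. A transcript of CNN1, of smooth muscle, with a mean of 308 estimated counts fell in each line, and its main transcript was listed for neither. By immunostaining, the paper found NKX2.5 and TNNT2 in a substantial number of beating UBE2B-/- cells but not in all. The share was lower in UBE2B-/-2 than in UBE2B-/-1 for each protein. Selection in lactate therefore does not make the mutant samples pure cardiomyocytes. The part of these cell types in the rise of MMP2, MMP14, ADAMTS7 and the rest was not tested.

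GC content also moved with the direction of change. Over all called transcripts, the median GC content was 59.3% for those higher and 42.9% for those lower in UBE2B-/-1, and 58.0% and 44.0% in UBE2B-/-2. The members that rose had medians of 59.9% and 58.9%. MMP15, with 65.5% GC, fell in UBE2B-/-2, and ADAMTS9, with 47.8%, fell in UBE2B-/-1. At the wild-type transitions the medians of all higher and all lower transcripts lay between 48.2% and 52.6%. The part of GC content in the member changes was not tested.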

How the data were processed

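RNA-seq of 21 libraries was used, grouped by the sample labels. Trimming (FASTX-Toolkit), quantification against hg38 (Kallisto) and the Sleuth fit were done by the authors. They deposited 6 tables, which hold p-values and q-values of the Wald test, b, its standard error and the mean as natural log values (0.5 added to the estimated counts), and variance estimates, which the authors' fit gives as scores on the squared natural-log scale. The tables are the authors' own comparisons and were used because they are the data analysed here. They list only q-values up to 0.05 and hold 0 columns of per-sample values, so depth is unknown and precision is that of the fit.

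A call needed b to reach log2(1.5) in size, with q-values up to 0.05. The methods name a fold limit of 1.5, which is smaller. Log2 changes are b over the natural log of 2. Group means, the number tested, the other line and a scale common to the stages were computed from b, means and variances. The scales of neighbouring tables differed by a constant, with an SD between transcripts of at most 0.00252 on the natural-log scale. The steps were tested on simulated data. Each gene is represented by its listed transcript with the highest mean, and in traces by that listed in the most tables. Every listed TIMP, LOX, LOXL and PLOD gene, MMP2, MMP14 and, per comparison, the 6 other members with the largest absolute z were to be named with values. Further members named with values were chosen after their values were seen. Gene models are of GENCODE 44, matched for 93.9% to 95.1% of listed transcripts by identifier. Members, lists and tests were chosen with earlier results of these data known. Alternatives were another q limit, size limit, distribution, variance, level filter and unit of counting. Python 3.11.15, pandas 2.3.3 and scipy 1.17.1 were used. P-values measure the spread between differentiations of 1 line started at different times.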

Additional observations from a re-analysis of the deposited data

How the results depend on the processing

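With the t distribution and the adjustment over all transcripts, the number of called member transcripts went from 17 to 0 (iPSC to M), 28 to 0 (M to CMes), 32 to 0 (CMes to CP), 46 to 3 (CP to CM), 9 to 0 (UBE2B-/-1) and 13 to 0 (UBE2B-/-2). Among all transcripts it left 0, 0, 1, 561, 0 and 0. With a mean of at least 50 estimated counts, the count was 16 (M to CMes), 20 (CMes to CP), 27 (CP to CM) and 6 (UBE2B-/-2), by construction, since fewer transcripts were left. With a q limit of 0.01 it was 7 in UBE2B-/-2. The other size limits, the own residual variance, identical values counted once, the unadjusted p of the t distribution and the count of genes gave counts within 1.5 times the main ones in all 6 comparisons. The own residual variance and that unadjusted p could remove calls only from CP to CM, where 41 and 39 of 46 remained. Elsewhere every listed change passes both by construction. Counting identical values once and that unadjusted p were chosen after seeing the data. The difference between the lines stayed at 0 of 9 transcripts with the t distribution, by construction, since that distribution gives larger p-values. The cause of the other moves was not tested. For MMP2 from iPSC to M, the transcript with the largest absolute z had a log2 change of 1.10 and was called. No paired analysis was possible because the tables hold no values per library, and leaving out a replicate was not run for the same reason.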
